A study of Homo sapiens with 14 samples.

Results

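Transcripts of 8 genes of the serpin family and the plasminogen activation system were followed in IMR90, a widely used strain of fetal human lung fibroblasts with a finite lifespan in culture. The genes were SERPINB2, SERPINE2, SERPINB7, SERPINF1, SERPINH1, PLAT, PLAU and PLAUR, listed by name for this purpose, and SERPINB2 was selected on its fall after HMGB2 knockdown. These 8 genes stand among 15338 genes tested in the knockdown comparison and 15116 tested between old and young cells, and all 8 passed the filter on low counts in both.

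Serpins are proteins that mostly trap and inactivate serine proteases. Plasminogen activation is the cleavage of the inactive precursor plasminogen into plasmin, a protease that dissolves fibrin and helps to break down extracellular matrix. The activators are PLAT (tissue-type) and PLAU (urokinase-type), and PLAUR is the receptor that holds urokinase at the cell surface. SERPINB2 (plasminogen activator inhibitor 2) inhibits both activators, while SERPINE2 (protease nexin 1) inhibits thrombin, urokinase and other proteases. SERPINF1 (pigment epithelium-derived factor) and SERPINH1 (HSP47, a collagen chaperone of the endoplasmic reticulum) belong to the family without acting as protease inhibitors. SERPINB7 is an intracellular serpin best known from skin. Fibroblasts release activators and inhibitors, and both belong to the secreted factors studied in senescent cells.

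Poly(A)-selected RNA was sequenced in 7 groups, each with 2 replicates in the sample titles (14 samples). The isolates I79 and I10 were each taken young, while still proliferating, and old, after passaging into replicative senescence. I79 ICM is I79 treated with ICM (inflachromene), a compound that binds HMGB1 and HMGB2, high mobility group proteins of chromatin. WT and HMGB2 KD are wild-type cells and cells whose HMGB2 was knocked down with siRNA. The labels name neither the isolate nor any control siRNA for WT and HMGB2 KD, and nothing says that replicates were separate cultures, so p-values measure the spread between these libraries. Each young or old group came as a single column of the authors, given here without SD. The 3 kinds of table held between 10971132 and 41168932 reads in a column.

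HMGB2, LMNB1 and CDKN1A checked the labels. HMGB2 in CPM (counts scaled to a common library size) was 27.1 and 27.3 in WT and 3.22 and 3.64 in HMGB2 KD. It was 122 and 141 CPM in young I79 and I10 against 38.2 and 46.3 CPM in old. LMNB1 stood at 73.9 and 84.1 CPM in young I79 and I10, 8.30 and 14.04 in old and 21.0 and 19.5 in WT. CDKN1A (p21, a marker of senescence) stood at 354 and 341 CPM in young, 2350 and 1606 in old and 1163 and 1196 in WT. WT thus lay between young and old in LMNB1 and CDKN1A and below old in HMGB2, across tables counted differently. The cause was not tested. All 9 fibroblast markers were at 1 CPM or more in every group. Of the epithelial and keratinocyte markers, KRT14 was at 0 in every library, and the 4 genes together reached at most 0.729 CPM. The endothelial marker CDH5 was at 0 throughout, and the 2 of 3 endothelial markers listed in the young and old columns together stood at 0.480 and 0.394 CPM in young I79 and I10 and at 2.69 and 2.24 CPM in old. All 3 were listed in the other libraries, where they reached 3.56 CPM or less together.

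Levels were compared between genes per transcript length, as TPM (length-scaled shares of all transcripts) in the young and old columns and as CPM per kilobase in the other libraries. Young cells of both isolates had the same order of levels. SERPINH1 led with 881 TPM in I79 and 817 TPM in I10, followed by PLAU (397 and 331 TPM), PLAT (173 and 147 TPM), SERPINF1 (103 and 120 TPM), SERPINE2 (51.0 and 63.7 TPM) and PLAUR (48.2 and 51.9 TPM). SERPINB7 (0.93 and 3.46 TPM) and SERPINB2 (0.30 and 0.40 TPM) were the lowest. The ranges of SERPINE2 and PLAUR over the isolates overlapped, and those of the other neighbours did not.

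In old cells PLAT led, with 857 TPM in I79 and 499 TPM in I10. PLAU (520 and 266 TPM) and SERPINH1 (307 and 478 TPM) followed in an order that differed between isolates. SERPINE2 (95.6 and 94.4 TPM) and PLAUR (87.3 and 103 TPM) overlapped, and SERPINF1 (48.8 and 35.9 TPM), SERPINB7 (20.2 and 30.7 TPM) and SERPINB2 (11.8 and 1.89 TPM) came last. In WT, PLAT stood at 1562 and 1405 CPM per kilobase and PLAU at 679 and 632. SERPINH1 (422 and 457) and SERPINE2 (458 and 365) overlapped there on the same scale.

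SERPINB2 had the largest fitted difference of the 8 after HMGB2 knockdown, which is the value it was chosen by and is given as a description. Its WT libraries held 65.3 and 30.6 CPM and its HMGB2 KD libraries 7.24 and 2.38 CPM, from 2237, 1144, 265 and 95 counts. The higher HMGB2 KD library lay well below the lower WT library, while the libraries of either group also differed from each other by a larger fold than those of any other member. The fitted log2 fold change was -3.33. It was -2.73 without HMGB2 KD replicate 2, -4.34 without HMGB2 KD replicate 1, -2.68 without WT replicate 1 and -3.78 without WT replicate 2. SERPINB2 lies at chr18:61538926-61571122 (GRCh37, plus strand), and a coding gene without a symbol overlaps it on the same strand.

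Of the activators, PLAT fell and PLAU was not called. Calls needed an adjusted p below 0.01 together with a log2 fold change beyond 0.6 in either direction. PLAT (chr8:42032236-42065227, minus strand) stood at 4162 and 3743 CPM in the WT libraries and at 2469 and 2087 CPM in the knockdown libraries. Both knockdown libraries were below both WT libraries, and the level was 0.58-fold that of WT, or -0.80 on the log2 scale with an SE of 0.15 (edgeR, quasi-likelihood fit over all genes, adjusted p 0.0041). Without HMGB2 KD replicate 2 the log2 fold change was -0.68 and the call was lost (adjusted p 0.056 by edgeR). Over all alternatives its adjusted p lay between 1.2e-10 and 0.056.

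PLAU (chr10:75668935-75677254, plus strand) stood at 1579 and 1469 CPM in the WT libraries and at 2115 and 2125 CPM in the knockdown libraries. The groups did not overlap, but the log2 fold change of 0.48 missed the thresholds (SE 0.14, adjusted p 0.047 by edgeR). An antisense gene, C10orf55, overlaps PLAU, and no source says whether counting used strand, so their reads cannot be told apart. PLAUR (chr19:44150247-44174699, minus strand) had 110.5 and 87.7 CPM in the WT libraries and 127.9 and 133.0 CPM in the knockdown libraries, with a log2 fold change of 0.40 ± 0.14 (SE) and an adjusted p of 0.088.

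Among the serpins outside protease inhibition, SERPINH1 rose. It lies at chr11:75273101-75283828 (plus strand) and stood at 937 and 1013 CPM in the WT libraries and at 1458 and 1753 CPM in the knockdown libraries. The groups were apart, with a 1.65-fold higher level and a log2 fold change of 0.72 ± 0.15 (SE) and an adjusted p of 0.0073 by edgeR. This call was lost without HMGB2 KD replicate 2 (log2 fold change 0.58, adjusted p 0.060) and without WT replicate 1 (0.66, adjusted p 0.031), and over all alternatives the adjusted p lay between 2.11e-07 and 0.060. SERPINF1 (chr17:1665323-1680859, plus strand) stood at 37.3 and 42.2 CPM in the WT libraries and at 36.3 and 32.4 CPM in the knockdown libraries, a log2 fold change of -0.21 ± 0.14 (SE) and an adjusted p of 0.39 by edgeR.

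The other protease-inhibiting members were not called. SERPINE2 (chr2:224839762-224904035, minus strand) had 943 and 751 CPM in the WT libraries and 1074 and 795 CPM in the knockdown libraries, overlapping groups with a log2 fold change of 0.14 ± 0.17 (SE) and an adjusted p of 0.69 by edgeR. Its sign turned without HMGB2 KD replicate 1 (-0.10) and without WT replicate 2 (-0.017). SERPINB7 (chr18:61420169-61472610, plus strand), a low gene, had 1.37 and 2.46 CPM in the WT libraries and 3.63 and 5.67 CPM in the knockdown libraries. Its log2 fold change of 1.27 missed the threshold on p (SE 0.34, adjusted p 0.025 by edgeR), and without WT replicate 2 it was 1.76 and called (adjusted p 0.0010). Without WT replicate 1 it was 0.92, and without HMGB2 KD replicate 2 it was also 0.92.

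**Figure D1:**
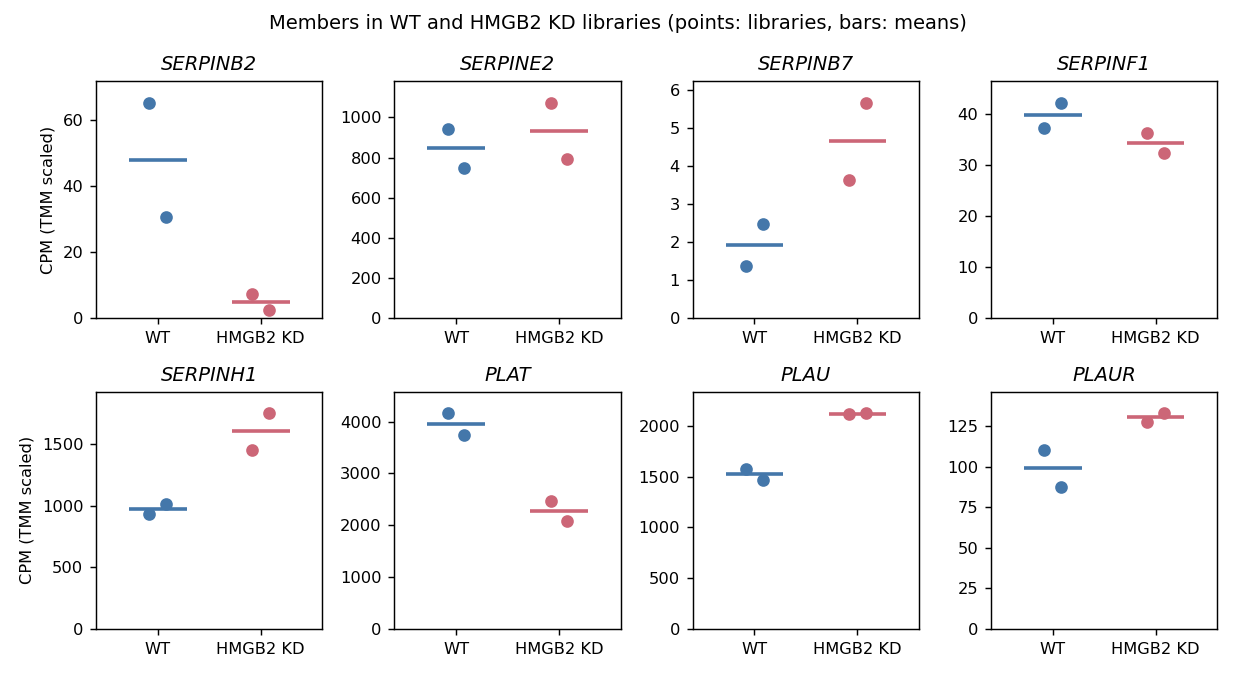
CPM of the 8 members (y axis, scaled by TMM and starting at 0) in the 2 WT and 2 HMGB2 KD libraries. Points are libraries and bars are group means. SERPINB2 drops from a mean of 48.0 to 4.81 CPM and PLAT from 3953 to 2278 CPM, SERPINH1 is higher at 1606 against 974.9 CPM, and the SERPINE2 groups overlap.

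Counted over the 7 members other than SERPINB2, 1 was called higher and 1 lower, beside 2.86% of all genes called higher and 2.34% called lower. Without HMGB2 KD replicate 2 edgeR kept neither call, and without WT replicate 1 the call of SERPINH1 was lost. The 2 libraries of each group did not overlap for 6 of these 7 members, against 53.8% of all genes. Of all genes, 797 were called (438 higher and 359 lower), and 312 without HMGB2 KD replicate 2. Scaled by library totals in place of TMM, 869 were called, 385 higher and 484 lower, and the members' fold changes moved by -0.065 on the log2 scale.

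Other genes of the plasminogen system, of coagulation and of related receptors were read from a list of 26. Of these, 19 were tested after HMGB2 knockdown. Among the 19, 4 were called higher and 2 lower, beside 2.86% and 2.34% of all genes. The median log2 fold change of the 19 was 0.075, against 0.0018 over all genes. The largest rise in the list was F2RL1, a protease-activated receptor, with 7.62 and 9.67 CPM in the WT libraries and 30.5 and 33.6 CPM in the knockdown libraries (log2 fold change 1.89, SE 0.16). The largest fall was TFPI2, a secreted inhibitor of plasmin and other proteases, from 3556 and 2052 CPM to 1052 and 482 CPM (log2 fold change -1.87, SE 0.31). The other called genes were F2R, S100A10 and ITGB3 (higher) and THBD (lower), named after their values were seen.

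Beside SERPINH1, 19 collagen chains and collagen-processing genes were tested. Of these, 4 were called higher and 1 lower, against 2.86% and 2.34% of all genes. The median log2 fold change of the 19 after HMGB2 knockdown was 0.52, against 0.0018 over all genes, and 18 of 19 lay above 0. P4HA2, a subunit of collagen prolyl hydroxylase, had the largest called rise (1.02, SE 0.14, adjusted p 0.00041 by edgeR). COL3A1 was the gene called lower (-1.18, SE 0.16, adjusted p 0.00038 by edgeR), and PLOD2, P3H2 and COL1A1 were the others called higher. Of the 29 other coding serpins counted, 9 passed the filter and 0 were called. Their median was 0.13, against 0.0018 over all genes.

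Between old and young cells, 4 members were called higher and 1 lower of 8, beside 5.75% of all genes called higher and 3.82% called lower. This comparison was fitted over both isolates, which served as the only replicates, and left 1 residual degree of freedom. Scaling by library totals moved the fold changes by -0.21 on the log2 scale and turned the split of called genes from 869 higher and 578 lower to 1019 higher and 2111 lower, while it changed the direction of none of the 8 members.

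PLAT had the largest rise of the activators. It went from 266 to 1448 CPM between young and old I79 and from 216 to 882 CPM between young and old I10, so that both old columns lay above both young ones. Over both isolates it was 4.72-fold higher in old cells (2.24 ± 0.17 SE on the log2 scale, adjusted p 0.0042 by edgeR). PLAU went from 521 to 758 CPM between young and old I79 and from 428 to 405 CPM between young and old I10. Its log2 ratio was 0.54 in I79 (95% counting interval 0.50 to 0.58) and -0.082 in I10 (-0.13 to -0.037), and it was not called over both (0.23, SE 0.19, adjusted p 0.39 by edgeR). PLAUR rose in both isolates, from 33.0 to 70.2 CPM between young and old I79 and from 37.1 to 85.7 CPM between young and old I10 (1.15 ± 0.10 SE on the log2 scale, adjusted p 0.0050).

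Of the inhibitors, SERPINB7 rose most among called members, from 1.15 to 22.2 CPM between young and old I79 and from 2.71 to 32.4 CPM between young and old I10. The fitted difference was 14.5-fold (3.85 ± 0.23 SE on the log2 scale, adjusted p 0.0036 by edgeR). SERPINE2 rose from 57.2 to 123 CPM between young and old I79 and from 73.6 to 126 CPM between young and old I10 (0.94 ± 0.12 SE on the log2 scale, adjusted p 0.0090). The old columns of SERPINE2 were nearly equal while the young ones differed.

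SERPINB2 rested on 5 counts in young and 256 in old I79, and on 8 in young and 42 in old I10. It went from 0.32 to 13.9 CPM and from 0.42 to 2.32 CPM. Both old columns were above both young ones, but by different amounts, with a log2 ratio of 5.44 in I79 (95% counting interval 4.20 to 7.08) and of 2.48 in I10 (1.37 to 3.78). The difference between isolates was not tested. The fitted log2 fold change of 4.04 did not pass (SE 0.71, adjusted p 0.017 by edgeR), while the DESeq2 Wald test called it (adjusted p 1.04e-05). Over the alternatives that gave a p it lay between 3.34e-14 and 0.0295.

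Both serpins outside protease inhibition were lower in old cells. SERPINF1 decreased from 78.0 to 41.4 CPM between young and old I79 and from 88.6 to 34.4 CPM between young and old I10 (-1.14 ± 0.14 SE on the log2 scale, adjusted p 0.0084 by edgeR). SERPINH1 stood at 1106 and 423 CPM in young and old I79 and at 1002 and 690 CPM in young and old I10. The young columns were close and the old columns were not, and the fitted log2 fold change of -0.96 missed the threshold (SE 0.24, adjusted p 0.039 by edgeR), while the DESeq2 Wald test called it (adjusted p 4.5e-05). The alternatives gave between 8.47e-07 and 0.0425.

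**Figure D2:**
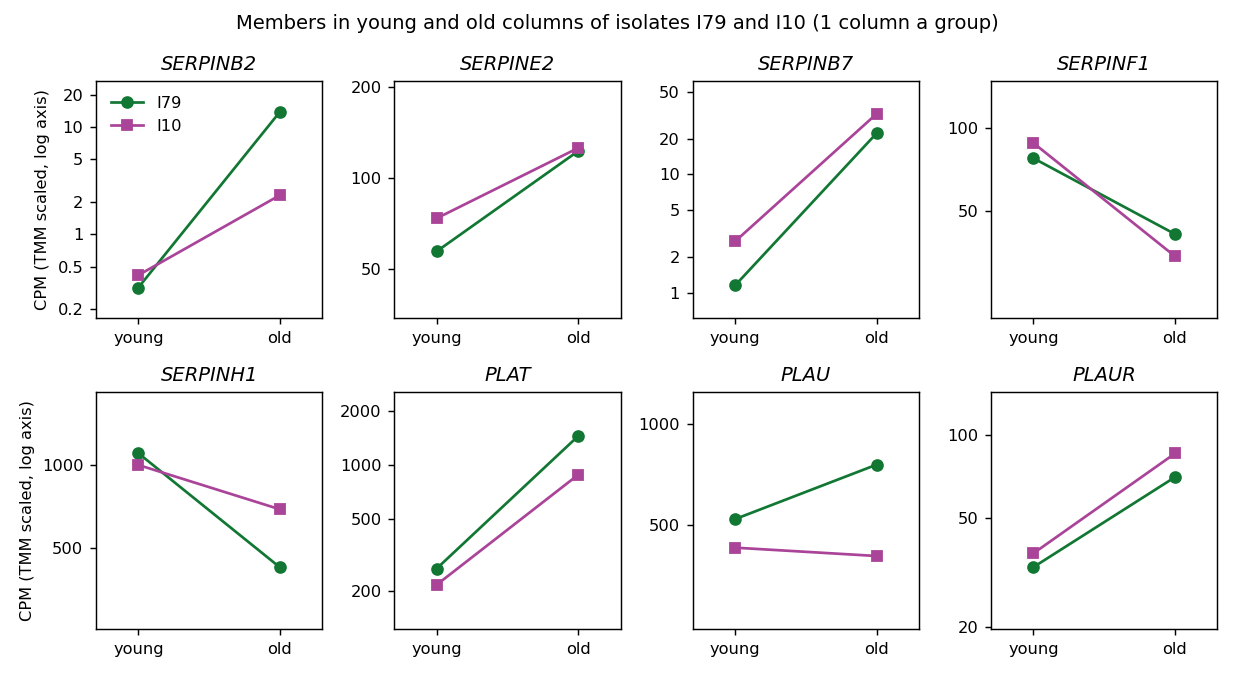
CPM of the 8 members (y axis, log scale, TMM scaled) in the young and old columns of I79 (circles) and I10 (squares), with 1 column for each group and lines joining the columns of an isolate. The lines run close to parallel for PLAUR (log2 ratios of 1.09 in I79 and 1.21 in I10) and rise more in I79 for PLAT (2.45 and 2.03). They part for SERPINB2 (13.9 CPM in I79 old against 2.32 CPM in I10 old) and go opposite ways for PLAU.

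In the list of plasminogen and coagulation genes, 18 were tested between old and young cells. Of these, 6 were called higher and 0 lower, beside 5.75% and 3.82% of all genes. The median over the 18 was 0.61 on the log2 scale, against -0.0099 over all genes. The largest rise was A2M, a protease-trapping protein that also binds plasmin, from 1.22 to 42.5 CPM between young and old I79 and from 0.42 to 18.6 CPM between young and old I10. Of 19 collagen chains and collagen-processing genes, 2 were called higher and 1 lower, beside 5.75% and 3.82% of all genes. The median log2 fold change of the 19 was 0.49, against -0.0099 over all genes, and 12 of 19 lay above 0. SERPINH1 was lower, as were the chains COL1A1 (-0.90) and COL3A1 (-0.96), while COL1A2 was higher (0.29). None of these 4 genes was called. P3H2, a prolyl hydroxylase of collagen, had the largest rise (log2 fold change 3.46, SE 0.24) and P4HA3 was called lower (-1.60, SE 0.18). P4HA2 was the other called gene. Of the other coding serpins, 7 were tested and 0 were called. Their median was 0.33, against -0.0099 over all genes.

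Read by transcript, the rise of SERPINB7 in old cells came with a second start. Transcript SERPINB7-202 held 18 and 45.0 estimated counts in young I79 and I10 and 129 and 279 in old. Transcript SERPINB7-207, which starts 2359 bases downstream (chr18:61445011-61472610, GRCh37), was listed at 0 in both young columns and at 266 and 267 estimated counts in the old ones. A shorter transcript with the same start, SERPINB7-205, was listed at 0 and 6.98 in young and at 15.0 and 41.5 in old cells. The downstream start thus took 0% and 13.4% of SERPINB7 counts in young I79 and I10, and 68.4% and 52.5% in old. Transcript shares are estimates from reads that largely fit both transcripts, and the young columns rest on only 18 and 52 counts.

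**Figure D3:**
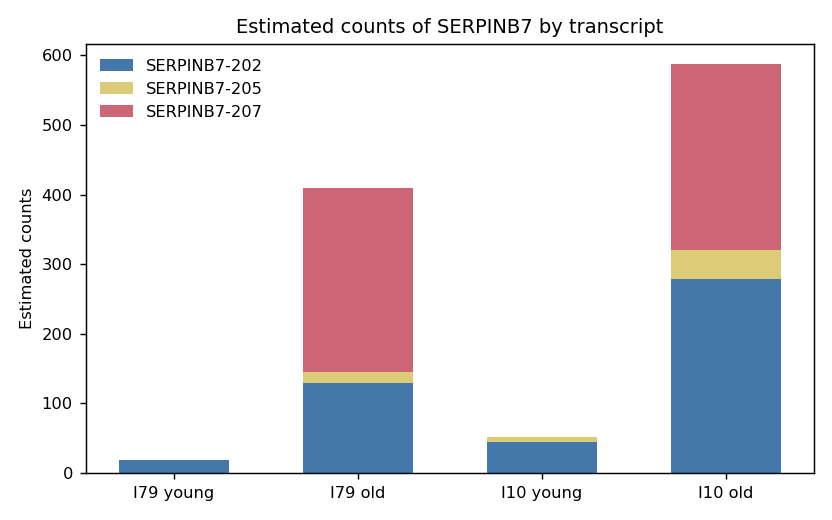
Estimated counts of SERPINB7 (y axis, stacked bars starting at 0) by transcript in the 4 young and old columns. SERPINB7-207 is listed at 0 in both young columns and reaches 266 in I79 old and 267 in I10 old, beside 129 and 279 for SERPINB7-202.

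The stretches upstream of the 2 SERPINB7 starts in use and of the SERPINB2 start are shown because these members had the largest fitted differences between old and young cells and lie next to each other on chromosome 18. They are RefSeq promoter sequences of GRCh38.p14, plus strand, and capitals mark matches to AP-1 (TGANTCA) or the TATA box (TATAAA) on either strand.
SERPINB7, upstream of the start of SERPINB7-202, chr18:63775168-63775387, 250 to 31 bases before the start: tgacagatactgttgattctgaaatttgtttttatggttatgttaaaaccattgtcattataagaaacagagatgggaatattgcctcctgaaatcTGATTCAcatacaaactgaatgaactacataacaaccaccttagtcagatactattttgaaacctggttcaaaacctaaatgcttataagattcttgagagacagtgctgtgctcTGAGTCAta
SERPINB7, upstream of the RefSeq start 4 bases into SERPINB7-207, chr18:63777531-63777776, 250 to 5 bases before the start: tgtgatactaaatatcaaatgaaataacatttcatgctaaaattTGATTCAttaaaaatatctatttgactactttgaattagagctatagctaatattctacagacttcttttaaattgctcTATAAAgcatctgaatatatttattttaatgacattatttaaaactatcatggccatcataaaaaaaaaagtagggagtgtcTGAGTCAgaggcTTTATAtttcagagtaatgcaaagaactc
SERPINB2, chr18:63887455-63887704, 250 to 1 bases before the start: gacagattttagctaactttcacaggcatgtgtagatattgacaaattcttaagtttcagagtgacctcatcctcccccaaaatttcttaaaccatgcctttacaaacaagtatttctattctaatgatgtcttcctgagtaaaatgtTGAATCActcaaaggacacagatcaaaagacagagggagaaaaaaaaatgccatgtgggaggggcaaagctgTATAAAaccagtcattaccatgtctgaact

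Both SERPINB7 stretches hold TGATTCA and TGAGTCA, the latter 39 and 45 bases before the start, and the SERPINB2 stretch holds TGAATCA 102 bases before it. A TATA box lies 30 bases before the SERPINB2 start and, on the other strand, 33 bases before the downstream SERPINB7 start. RefSeq gave 11 promoters for 6 of the members. In the 250 bases before these starts, AP-1 matched in 4 of the 11 promoters (SERPINB2, PLAUR and 2 of SERPINB7), the TATA box in 2 (SERPINB2 and SERPINB7) and the looser NF-kB motif (GGG and CC with 5 free letters between them) in 7. Of 35116 promoters in the table, counted in the same way, 6.57% held AP-1, 10.7% the TATA box and 54.4% the NF-kB motif. A match describes the letters and is not a site of binding.

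Transcript shares of the other members varied less over the 4 columns, which was not tested. All SERPINB2 counts were listed on SERPINB2-201. The MANE Select transcript, the default transcript of a gene, held between 92.6% and 97.3% of PLAT counts, at least 92.0% of PLAU counts and between 97.9% and 98.3% of SERPINH1 counts over the 4 columns. It held 69.6% and 72.9% of SERPINE2 counts in young I79 and I10 and 81.9% and 79.1% in old, and between 93.2% and 98.8% of SERPINF1 counts. For PLAUR it held between 61.3% and 66.2%, with most of the rest on PLAUR-202 (21.5% and 25.1% in young I79 and I10, 27.8% and 29.2% in old).

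SERPINB2 and SERPINB7 lie in a cluster of 10 SERPINB genes at chr18:61144191-61687013 (GRCh37). Only SERPINB7, SERPINB2 and SERPINB8 passed the filter in either test. SERPINB8 was not called in either comparison, with log2 fold changes of 0.21 after knockdown (adjusted p 0.45 by edgeR) and 0.33 in old cells (adjusted p 0.14). The other 7 genes of the cluster had at most 2 counts summed over the young and old columns and 0 over the WT and HMGB2 KD libraries. SERPINB10, which starts 4070 bases downstream of SERPINB2, had 2 counts over the young and old columns.

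Genes most like SERPINB2 were taken as those with the smallest root mean square difference in centred log2 CPM over the 8 WT, HMGB2 KD, young and old columns, among 12775 genes tested in both comparisons. The nearest were C19orf38 (0.78), FER1L6 (0.81), GPR160 (0.87), ACKR4 (0.88) and GDF15 (0.88), against a median of 1.95 over all genes. Their fitted log2 fold changes after knockdown were -2.59, -1.91, -2.23, -1.26 and -1.23. The likeness is a description, since columns of a table share their counting and the WT and HMGB2 KD values are those SERPINB2 was chosen by.

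The reads of the ICM libraries were assigned by other steps than those of the young columns, so treatment and counting cannot be told apart, and no test was run. They share the I79 young column with the old to young ratio of I79. Ratios were taken on log2 CPM over genes listed in all tables, and WT, whose labels name no ICM, was compared with I79 young in the same way. In the label checks WT held less HMGB2 and LMNB1 and more CDKN1A than I79 young, again across tables counted differently. Of the 8 members, 3 had a log2 ratio of ICM to I79 young above 0.6 and 3 below -0.6, beside 31.8% and 29.9% of all genes. For WT to I79 young, 5 members were above and 1 below, beside 20.8% and 25.7% of all genes.

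SERPINB2 was found at 50.5 and 56.5 CPM after ICM, against 0.36 CPM in I79 young, a log2 ratio of 6.84. WT held 70.9 and 33.2 CPM on the same scale, a log2 ratio of 6.70, so the ICM libraries and WT overlapped. SERPINB7 differed from this, with 8.93 and 10.8 CPM after ICM, 1.31 CPM in I79 young and 1.49 and 2.67 CPM in the WT libraries (log2 ratios of 2.81 for ICM and 0.57 for WT). SERPINE2 stood at 107 and 113 CPM after ICM and 65.2 CPM in I79 young, while WT held 1023 and 814 CPM. Its ratio was 0.75 to I79 young and -3.05 to WT, so that its direction rested on the control.

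The 2 serpins outside protease inhibition were lower in the ICM libraries than in either control. SERPINF1 stood at 7.38 and 9.32 CPM, against 88.9 CPM in I79 young and 40.4 and 45.8 CPM in the WT libraries (log2 ratio to I79 young -3.41). SERPINH1 stood at 631 and 612 CPM, against 1261 CPM in I79 young and 1016 and 1098 CPM in the WT libraries (-1.02). PLAU was also lower than in both, with 264 and 321 CPM against 594 CPM in I79 young and 1713 and 1592 CPM in the WT libraries (-1.03). PLAT had 391 and 485 CPM after ICM, 303 CPM in I79 young and 4516 and 4057 CPM in the WT libraries. PLAUR had 46.6 and 49.4 CPM, 37.7 CPM and 120 and 95.1 CPM. These 2 lay above I79 young by 0.52 and 0.35 and below WT by more.

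**Figure D4:**
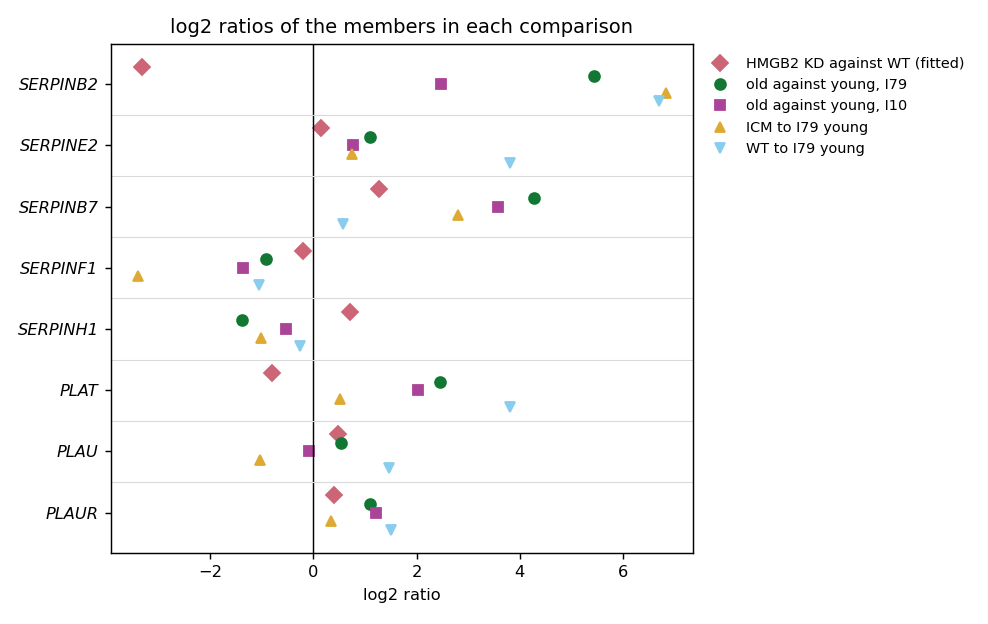
log2 ratios (x axis) of the 8 members in each comparison, with 1 marker for each comparison and a line at 0. The ICM and WT markers for SERPINB2 lie together at 6.84 and 6.70, those of SERPINE2 and PLAT lie far apart (0.75 and 3.80, 0.52 and 3.82), and the knockdown and old to young markers of PLAT and SERPINH1 lie on opposite sides of 0.

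In the ICM tables, which give reads by transcript region, 3 members had few reads in the 3′ UTR (untranslated region). SERPINB2 had 2.77% and 2.5% of its reads there, SERPINF1 0% and 1.01% and PLAUR 6.5% and 7.05%, against a median of 22.1% and 20.7% over genes with at least 50 coding reads. SERPINF1 rests on 95 and 99 reads. The other members lay between 14.5% (SERPINE2) and 29.8% (PLAU). With coding and noncoding reads only, the log2 ratios of ICM to I79 young of these 3 members were 7.24, -2.95 and 0.63.

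The ratio of PLAT to PLAU, per transcript length, does not depend on library scaling. It was 0.44 in both young columns and 1.65 and 1.87 in old I79 and I10, so that urokinase transcripts outnumbered those of the tissue activator in young cells and the reverse held in old cells. It was 1.29 and 1.32 after ICM. In WT it was 2.30 and 2.22, and in HMGB2 KD 1.02 and 0.86, with no overlap between these groups. With 2 libraries a group the smallest p of a two-sided exact permutation test is 0.333, and the ratio is given as a description. Ratios from differently counted tables were not compared.

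**Figure D5:**
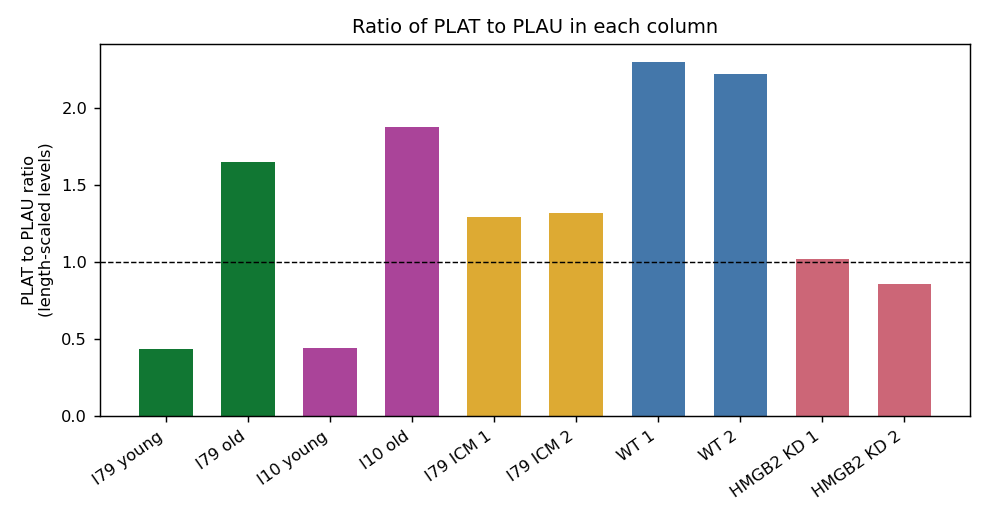
Ratio of PLAT to PLAU (y axis, starting at 0) in each column or library, from TPM in the young and old columns and from CPM per kilobase elsewhere. The dashed line marks equal levels. Young columns stand at 0.44 and old columns at 1.65 and 1.87, and HMGB2 KD libraries lie below WT.

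Blood and macrophage markers were read beside SERPINB2, which macrophages also make. The summed level of PTPRC, CD14 and CD68 was 23.2 and 25.3 CPM in young I79 and I10 and 151 and 76.6 CPM in old. It was between 40.0 and 40.5 CPM in the WT libraries and between 43.9 and 48.3 CPM in the HMGB2 KD libraries. Nearly all of this was CD68, a lysosomal protein that fibroblasts also make and that was called higher in old cells (log2 fold change 2.37, adjusted p 0.0066 by edgeR). PTPRC, which defines blood cells, stayed at or below 0.199 CPM and CD14 at or below 0.225 CPM in the young and old columns. In the ICM libraries, counted by other steps, the 3 markers together stood between 58.4 and 65.1 CPM. CD14 lay between 0.527 and 0.82 CPM there, and PTPRC was at most 0.226 CPM. CD14 stood at 1.31 and 0.56 CPM in the WT libraries and at 0.44 and 0.25 CPM in the knockdown libraries. It was not called (log2 fold change -1.44, SE 0.62, adjusted p 0.17 by edgeR). CD68 went the other way after HMGB2 knockdown and was not called either (log2 fold change 0.29, adjusted p 0.20 by edgeR). Of the fibroblast markers, LUM was called higher in old cells, and COL1A1, PDGFRB and VIM were called higher and COL3A1 lower after HMGB2 knockdown. The part of these markers in the members' differences was not tested. Since these are bulk samples, fewer cells with a transcript and less of it in each cell cannot be told apart.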

How the data were processed

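Poly(A)-selected RNA of 14 samples was sequenced. The members and gene lists were chosen with earlier results of these data known. The WT and HMGB2 KD files deposited by the authors hold 1 column of raw counts per library. STAR (hg19) and featureCounts are named in the study's methods, but the tables end with the summary rows of another counter, and the use of strand is not given in the sources used here. Summary rows (16.9% to 18.0% of the totals) were left out. For young and old groups the authors deposited 1 table each of estimated counts and TPM per transcript, in the layout of a transcript quantifier, although 2 replicates are listed. For ICM the authors deposited estimated counts of short reads per transcript region, with the aligner and build not given in the sources used here.

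Transcripts were summed per gene through GENCODE v44 lifted to GRCh37 (97.7% of IDs) and rounded. Tests were run in edgeR 4.0.16 under R 4.3.3 (quasi-likelihood, TMM scaling, filterByExpr, Benjamini-Hochberg over all genes), with isolate as a covariate for old against young. The SE is the log2 fold change over the square root of F. Calls used the thresholds in the study's methods, an adjusted p below 0.01 with a log2 fold change beyond 0.6 either way. For its ICM comparison of mRNA the study's results state an adjusted p below 0.05, used here as an alternative. ICM ratios used log2 CPM with a prior count of 2 over 24638 shared genes. Depth was 33561766 to 41168932 counts in WT and HMGB2 KD, 14598280 to 20055595 in young and old columns and 13290131 and 10971132 in the ICM libraries. Intervals are 95% Clopper-Pearson intervals of the share of counts that fell in the old column, and cover counting error only. Replicates were not duplicates (chi-square per degree of freedom 24.7 in WT, 37.6 in HMGB2 KD and 2.10 in ICM). In simulations that shifted 200 genes by a log2 of 1.5, 77% were recovered with 0 false calls among 14996 genes (knockdown design), and 77% with 2 among 14795 (old against young). The simulated spread followed a trend with expression, without spread particular to a gene or isolate. These values therefore do not give the error of the real comparisons or for smaller shifts. Named genes included the members, the called gene with the largest rise and fall of each list, and the 5 nearest to SERPINB2. The label checks, the cell type markers and genes of the SERPINB cluster were named as well. Further called genes of the lists were named after their values were seen. One listed gene is not reported here and was left out of the list counts. Alternatives were the DESeq2 1.42.0 Wald test, other filters, scalings, thresholds and covariates, 1 RUVs factor, other ICM reads, prior count and control, and leaving out each library or isolate.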

Additional observations from a re-analysis of the deposited data

Results flagged for a closer look

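PLAU, the urokinase-type activator, moved in opposite directions in the isolates with age. Its log2 ratio of old to young was 0.54 in I79 and -0.082 in I10, a difference of 0.62. Each isolate had 1 column a group, so the difference was not tested.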

How the results depend on the processing

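The number of members called stayed within 1.5 times the reported count, of 2 after knockdown and 5 between old and young, under every alternative that kept all libraries. Leaving out each library in turn gave between 0 (without HMGB2 KD replicate 2, by edgeR, with 5 of 7 at an unadjusted p under 0.05) and 3 called members after knockdown and between 312 and 999 called genes. The share of all genes at an unadjusted p under 0.05 was not counted without HMGB2 KD replicate 2. The count of members at that p therefore has no background beside it, and no conclusion is drawn from it. The same-numbered WT and HMGB2 KD libraries shared only a number (correlation of their deviations 0.12, with 2 pairs). A replicate block raised the called genes from 797 to 1243 and added SERPINB7 (log2 fold change 1.29, adjusted p 5.57e-05 by edgeR) to the called members. SERPINB7 was also called with no filter on low counts and with 1 RUVs factor. The count between old and young, with 1 residual degree of freedom, was 3860 at an adjusted p under 0.05, 4251 with no filter on low counts and 3130 with scaling by library totals, against 1447. SERPINB2 and SERPINH1 were called under each of no filter, library totals and DESeq2. Single members turned sign 6 times, SERPINE2 after knockdown without WT replicate 2 (-0.017) and without HMGB2 KD replicate 1 (-0.10; 0.35 at the highest, without HMGB2 KD replicate 2), SERPINE2, PLAT and PLAUR against WT in place of I79 young as control of ICM (-3.05, -3.30 and -1.15), and PLAU between old and young without isolate I79 (-0.082). Members past 0.6 after ICM numbered 8 with coding and noncoding reads only, 7 with WT as control and between 6 and 7 with either ICM library left out, against 6. The share of all genes past 0.6 was not counted under these ICM alternatives. In the main setting it was 31.8% above 0.6 and 29.9% below -0.6. The cause of the changes between settings was not tested. Depth limits SERPINB2 and SERPINB7 in young cells, with 5 to 52 counts.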
